A study of Mus musculus with 8 samples.

Results

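The 8 genes described here belong to the bone morphogenetic protein (BMP) pathway of mouse embryonic stem cells (ESCs). They are the ligand gene *Bmp4*, the receptor gene *Bmpr1a*, the signal transducers *Smad1* and *Smad5*, the inhibitory SMAD gene *Smad6* and the target genes *Id1*, *Id2* and *Id3*. They were chosen by name as a pathway, with earlier results of these libraries known though by no threshold on a measured value, and are 8 of the 55401 genes in the count files. All 8 passed the filter on low counts that left 17532 genes for testing.

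RNA was sequenced from 8 ESC cultures, 2 labelled Control, 3 Zzz3 auxin and 3 Yeats2 auxin. ZZZ3 and YEATS2 both belong to ATAC (Ada-two-A-containing), a complex that acts as a transcriptional coactivator. In the cells of the study they were fused to an auxin-inducible degron (AID), which leads to destruction of the protein once auxin is added to cells that make the plant F-box protein Tir1. The labels give auxin at 500 µM for 24 h for both depletions, and the same medium for all cultures: 15% fetal calf serum, leukaemia inhibitory factor (LIF), the inhibitors CHIR99021 at 3 µM and PD0325901 at 1 µM, and G418 at 400 µg/ml to select for Tir1. They state neither the line of the controls nor whether these received solvent or auxin, so a difference from control cannot be told apart from an effect of auxin itself or of the line. The labels do not say whether the cultures of a group were grown independently, and P values measure the spread between these libraries alone.

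BMP ligands bind a pair of type I receptors, such as BMPR1A or ACVR1, and a pair of type II receptors, such as BMPR2. The active receptor phosphorylates SMAD1, SMAD5 and SMAD9, which enter the nucleus with SMAD4 and switch on target genes. Among the best known targets are the *Id* genes, whose proteins lack a DNA-binding region and capture the E proteins that other basic helix-loop-helix (bHLH) factors need as partners, and *Smad6* and *Smad7*, whose proteins restrain the pathway. In mouse ESCs kept in serum and LIF, BMP and its *Id* targets are known for holding back neural differentiation, and the serum itself carries BMP activity.

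SMAD proteins read short palindromes in DNA, and 2 of these were looked for around the start of each gene to show which of the 8 carry them. One is GGCGCC, the GC-rich box of SMAD1 and SMAD5. The other is GTCTAGAC, a palindrome of the SMAD box that SMAD3 and SMAD4 bind. Each reads the same on both strands, and neither contains the other. RefSeq windows of 300 bases in GRCm38.p6, from 250 bases before to 50 after a transcript start, were at hand for 7 of the 8 genes, with 3 windows for *Smad5*. There was no entry for *Id1*. The matches are shown in 30 bases each, 5′ to 3′ on the strand of the gene, with the palindrome in capitals.
Bmpr1a, chr14:34502727-34502756, minus strand: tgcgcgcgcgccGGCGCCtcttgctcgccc
Id2, chr12:25096306-25096335, minus strand: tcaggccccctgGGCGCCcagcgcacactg
Smad5, chr13:56703021-56703050, plus strand: ccccggcgagcgGGCGCCgagcgcttgtcc
Smad6, chr9:64022045-64022074, minus strand: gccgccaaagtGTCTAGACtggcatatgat

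The GGCGCC of *Bmpr1a* began 198 bases and that of *Id2* 231 bases before the RefSeq start, in both genes within the annotated gene span but in no exon of it. That of *Smad5* lay 24 bases after the first of its RefSeq starts, in an exon annotated as untranslated region. The GTCTAGAC of *Smad6* began 4 bases before its RefSeq start and reached into the untranslated region of its first exon. GGCGCC was found in 11.9% of 32544 distinct windows of all genes, and GTCTAGAC in 0.215%. The windows of *Bmp4*, *Id3* and *Smad1* held neither.

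Libraries held from 14315120 to 27884704 reads assigned to a gene. The 8 pluripotency genes examined, *Pou5f1*, *Sox2*, *Nanog*, *Zfp42*, *Esrrb*, *Klf4*, *Tfcp2l1* and *Dppa3*, were above 1 CPM in all 8 libraries. *Nanog* had 772 and 736 CPM in the controls and less, 561 to 684 CPM, in all 6 auxin libraries. *Pou5f1* had 275 and 420 CPM in the controls and more, 460 to 592 CPM, in all 6. The others overlapped the controls, and 0 of the 8 were called in either comparison with control. Of 7 fibroblast markers, *Dcn* had no read in any library, and the 7 together summed to between 1.32 and 2.23 CPM per library. The summed CPM of 6 primitive endoderm markers was 4.19 to 7.21, of 6 trophoblast markers 44.7 to 48.6 and of 5 mesendoderm markers 12.3 to 23.0. That of 5 neuroectoderm markers was 69.1 to 85.9 in the controls, 92.8 to 118 in Zzz3 auxin, above both controls in each library, and 84.4 to 103 in Yeats2 auxin, mostly from *Nes* and *Tubb3*, and 0 of these 5 were called in either comparison. *Sox1*, a marker of the early neural plate, had 5.77 and 4.49 CPM in the controls, 0.767, 3.55 and 4.68 CPM with Zzz3 auxin and 2.90, 2.03 and 2.77 CPM with Yeats2 auxin. Zzz3 auxin replicate 1 stood apart for *Dppa3* (17.4 CPM, 2.47 to 4.43 elsewhere) and *Pax6* (2.80 CPM, 0.289 to 1.00 elsewhere), and had the highest *Nes* (68.0 CPM) and *T*. The part of these markers in the results was not tested. Libraries differed in how expression followed the GC content of genes: the median log2 deviation of GC-rich genes (upper quintile) minus that of GC-poor genes (lower quintile) was lowest in Control replicate 1 (-0.63), highest in Zzz3 auxin replicate 3 (0.47) and from -0.08 to 0.16 elsewhere. The mRNA of *Zzz3* was at 186 and 182 CPM in the 2 control libraries, 77.5, 96.9 and 112 CPM with Zzz3 auxin and 189, 183 and 191 CPM with Yeats2 auxin, and that of *Yeats2* at 90.9 and 95.8, then 133, 119 and 123, then 77.3, 103 and 43.7. The degron acts on the protein, so these mRNAs are no measure of the depletion.

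Levels are CPM, the reads of a gene in proportion to all assigned reads of its library, scaled between libraries with edgeR's trimmed mean (TMM). Where levels of different genes are compared, CPM were divided by the kilobases of annotated exon. On that scale the 8 genes were led by *Bmpr1a*, with a median of 24.2 CPM per kb over the 8 libraries (20.9 to 30.4), and *Smad5*, with 10.3 (9.35 to 11.6). The ranges of both were separate from each other and from that of the next gene. *Bmp4* (median 3.32 CPM per kb), *Smad1* (2.54), *Id2* (2.51), *Id3* (2.39) and *Id1* (2.28) followed closely, and each overlapped its neighbour in that order. *Smad6* was lowest, with a median of 1.09 CPM per kb (0.677 to 1.86), and its range overlapped that of *Id1*, which stood above it in 7 of 8 libraries. 

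Other genes of the pathway place these levels. *Gdf3*, which encodes a BMP and Nodal-related ligand, stood 19.8 to 37 times above *Bmp4* per kb, and *Bmp4* 2.19 to 5.04 times above *Bmp7*, a second BMP ligand. *Bmpr1a* exceeded the type I receptor gene *Acvr1* 8.82- to 14.5-fold and the type II receptor gene *Bmpr2* 7.71- to 12.5-fold per kb. *Smad5* exceeded *Smad1* 3.51- to 4.56-fold. The inhibitory SMAD mRNA of these cells was mainly *Smad7*, at 10.7 to 32.2 times the level of *Smad6* per kb. Among the *Id* genes *Id4* was highest, 1.27 to 3.28 times *Id1* per kb. These ratios are ranges over the 8 libraries, in each of which the first gene was the higher one.

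**Figure D1:**
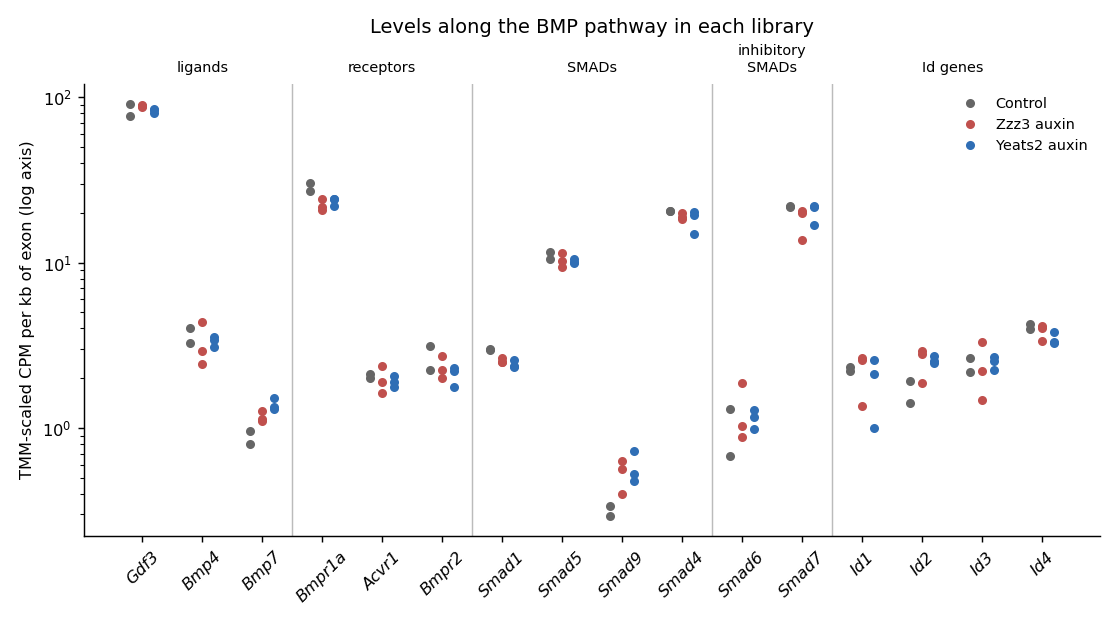
TMM-scaled CPM per kb of exon on a log axis for 16 genes of the BMP pathway, grouped by role. Each point is 1 of the 8 libraries, coloured by group (2 Control, 3 Zzz3 auxin, 3 Yeats2 auxin). *Bmpr1a* and *Smad5* stand above the other 6 of the 8 genes described, and *Smad7* stands at least 10.7-fold above *Smad6* in every library.

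The first question was which of the 8 mRNAs differ from control when ZZZ3 or YEATS2 is depleted. None of the 8 passed the test across all genes. With edgeR's quasi-likelihood test and Benjamini-Hochberg adjustment over 17532 genes, 0 of the 8 were called at an adjusted P under 0.05 in Zzz3 auxin against control, where 0.753% of all genes were called, and 0 of 8 in Yeats2 auxin against control, where 0.445% were. At an unadjusted P under 0.05 there were 2 of 8 in each comparison, *Id2* above and *Bmpr1a* below control, against 21.7% and 14.6% of all genes. DESeq2 called 0 of 8 in each as well, with the count at an unadjusted P under 0.05 again 2 and 2. The shares of all genes with DESeq2 are not given here. The median log2 fold change (FC) of the 8 was -0.09 in Zzz3 auxin and -0.12 in Yeats2 auxin, beside 0.01 and -0.01 over all genes tested. Both comparisons share the 2 controls, so their values for a gene are not independent. In RNA of whole cultures a lower level in all cells and fewer cells that express a gene cannot be told apart.

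**Figure D2:**
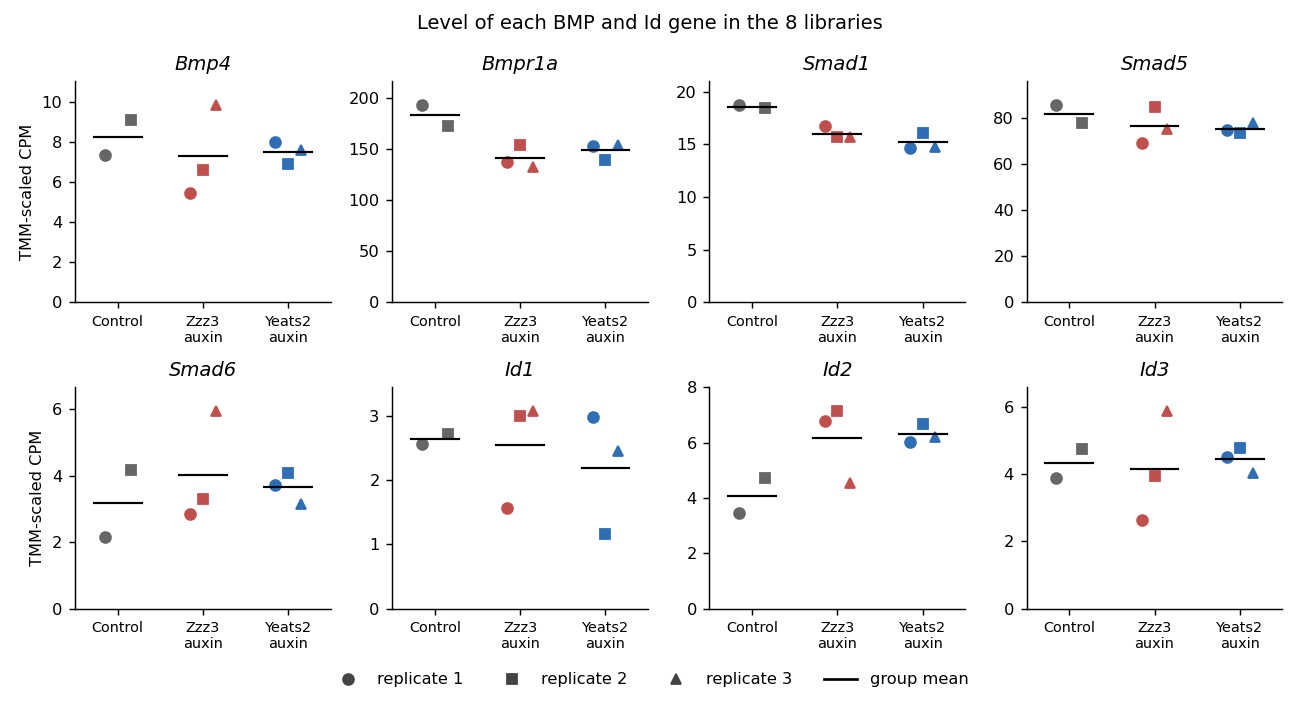
TMM-scaled CPM of the 8 genes in each library, with axes starting at 0. Symbols mark the replicate number and horizontal lines the group mean. *Bmpr1a* and *Smad1* lie below both controls in all 6 auxin libraries, *Id2* lies above both in 5 of 6, and the other 5 genes overlap the controls.

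*Bmp4* (ENSMUSG00000021835, GRCm38 chr14:46383520-46390669, minus strand), the ligand, had 7.35 and 9.07 CPM in the 2 control libraries, 5.45, 6.60 and 9.84 CPM with Zzz3 auxin and 7.97, 6.91 and 7.60 CPM with Yeats2 auxin. The lowest and the highest of the 8 values were both in Zzz3 auxin, and both auxin groups overlapped the controls. The log2 FC was -0.19 in Zzz3 auxin (SE 0.24, 95% confidence interval -0.72 to 0.34, edgeR adjusted P 0.696) and with Yeats2 auxin -0.13 (SE 0.24, interval -0.66 to 0.39, adjusted P 0.829). *Gm15217* and *Gm15222* overlap *Bmp4* on the opposite strand, and the strand setting of the counting is not stated, so their reads may not be separate. Among 11104 other protein-coding genes that averaged 2 CPM or more, those whose log2 CPM followed *Bmp4* most closely over the 8 libraries were *Agpat3*, *Kctd7* and *Atp6v0e2*, with a root mean square difference of 0.0827, 0.0830 and 0.0905 after centring, against a median of 0.317 over all candidates.

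*Bmpr1a* (ENSMUSG00000021796, chr14:34410734-34503341, minus strand), the type I receptor, was the most abundant of the 8. It had 193 and 173 CPM in the 2 control libraries, 137, 154 and 133 CPM with Zzz3 auxin and 153, 140 and 154 CPM with Yeats2 auxin. All 6 auxin libraries lay below both controls. The log2 FC of -0.37 in Zzz3 auxin (SE 0.12, interval -0.63 to -0.12) had an unadjusted P of 0.0078 and an edgeR adjusted P of 0.113. In Yeats2 auxin it was -0.30 (SE 0.12, interval -0.55 to -0.04), with an adjusted P of 0.27. As linear differences from control these are -22.8% and -18.5%, and with 1984 to 4202 reads per library the counting error of a single value was 1.54% to 2.25%. The exons of *Bmpr1a* have 41.3% GC, the lowest share of the 8. Once the trends of the libraries on GC content and exon length had been removed, the log2 FC was -0.18 in Zzz3 auxin and -0.14 in Yeats2 auxin (adjusted P 0.357 and 0.57), and all 6 auxin libraries still lay below both controls. *Gm17110* overlaps it on the opposite strand.

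Both receptor-regulated SMAD genes among the 8 had their means below control. The third of the pathway, *Smad9*, lay above control and is described below. *Smad1* (ENSMUSG00000031681, chr8:79338395-79399518, minus strand) had 18.7 and 18.4 CPM in the 2 control libraries, 16.7, 15.7 and 15.7 CPM with Zzz3 auxin and 14.7, 16.1 and 14.8 CPM with Yeats2 auxin. All 6 auxin libraries lay below the controls, by log2 FCs of -0.21 (SE 0.14, interval -0.52 to 0.09, adjusted P 0.4) and -0.29 (SE 0.14, interval -0.60 to 0.01, adjusted P 0.36). With the GC and length correction the log2 FCs were -0.30 and -0.37, and the 6 libraries again lay below both controls. *Smad5* (ENSMUSG00000021540, chr13:56703010-56742377, plus strand) had 85.9 and 77.8 CPM in the 2 control libraries, 69.4, 84.7 and 75.4 CPM with Zzz3 auxin and 74.7, 73.7 and 78.1 CPM with Yeats2 auxin. These groups overlapped, with log2 FCs of -0.10 (SE 0.12, interval -0.36 to 0.17, adjusted P 0.68) and -0.12 (SE 0.12, interval -0.38 to 0.15, adjusted P 0.694). Of the 8 genes, *Smad5* and *Bmpr1a* were measured most precisely. The small RNA genes *Gm27301*, *Gm27834* and *Gm27271* lie in *Smad5* on its own strand.

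All 6 auxin libraries were thus below both controls for 2 of the 8 genes, *Bmpr1a* and *Smad1*, and above both for 0 of 8. Over all genes tested the shares were 13.2% below and 10.5% above. The mean of both auxin groups was also set against control in a contrast chosen after seeing the data, in which 1.26% of all genes were called. It called 0 of the 8, with 2 at an unadjusted P under 0.05. The share of all genes at that unadjusted cut is not given here, so the 2 cannot be set against it. The log2 FCs of this contrast were -0.33 for *Bmpr1a* (SE 0.10, edgeR adjusted P 0.111), -0.25 for *Smad1* (SE 0.12, adjusted P 0.273) and 0.61 for *Id2* (SE 0.22, adjusted P 0.154).

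*Smad6* (ENSMUSG00000036867, chr9:63953076-64022059, minus strand), the feedback inhibitor, was at 2.17 and 4.17 CPM in the 2 control libraries, 2.84, 3.30 and 5.96 CPM with Zzz3 auxin and 3.71, 4.09 and 3.17 CPM with Yeats2 auxin. The 2 controls lay further apart than the 3 Yeats2 auxin libraries. The log2 FCs of 0.31 (SE 0.35, interval -0.46 to 1.08, adjusted P 0.648) and 0.20 (SE 0.35, interval -0.57 to 0.97, adjusted P 0.822) had no settled sign. They were -0.11 and -0.02 after the GC and length correction, and -0.08 and -0.19 without Control replicate 1. *Smad6* has the highest exon GC content of the 8, 60.8%, and its lowest and highest values were in Control replicate 1 and Zzz3 auxin replicate 3, the libraries at the opposite ends of the GC trend.

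*Id1* (ENSMUSG00000042745, chr2:152736251-152737410, plus strand) is often taken as the most direct readout of BMP signalling. It had 2.57 and 2.72 CPM in the 2 control libraries, 1.57, 3.01 and 3.08 CPM with Zzz3 auxin and 2.98, 1.16 and 2.45 CPM with Yeats2 auxin. In each auxin group 1 library lay well below the rest, Zzz3 auxin replicate 1 and Yeats2 auxin replicate 2. Of the other 4 auxin libraries, Yeats2 auxin replicate 3 also lay below both controls and 3 lay above both. With 32 to 82 reads per library, counting alone gave an error of 11% to 17.7%. The log2 FC was -0.07 in Zzz3 auxin (SE 0.39, interval -0.92 to 0.79, adjusted P 0.944) and -0.27 in Yeats2 auxin (SE 0.39, interval -1.12 to 0.58, adjusted P 0.78). Without the low library of each group it was 0.22 and 0.04. These intervals are wide, and at this depth and spread the data do not distinguish among the differences inside them. The genes most like *Id1* over the 8 libraries were *Itgb1bp2*, *Gas7* and *Gpnmb*, with a root mean square difference of 0.190, 0.225 and 0.227 in centred log2 CPM, against a median of 0.499 over all candidates.

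*Id2* (ENSMUSG00000020644, chr12:25093799-25097140, minus strand) had 3.45 and 4.72 CPM in the 2 control libraries, 6.79, 7.15 and 4.55 CPM with Zzz3 auxin and 6.03, 6.66 and 6.21 CPM with Yeats2 auxin. All 3 Yeats2 auxin libraries lay above both controls, and in Zzz3 auxin replicate 3 lay between them. The log2 FC was 0.60 in Zzz3 auxin (SE 0.24, interval 0.08 to 1.13, unadjusted P 0.0284, edgeR adjusted P 0.18) and with Yeats2 auxin 0.62 (SE 0.24, interval 0.10 to 1.15, unadjusted P 0.024, adjusted P 0.262), so it did not pass the test. With the GC and length correction the log2 FCs were 0.72 and 0.71 (adjusted P 0.145 and 0.2), and all 6 auxin libraries lay above both controls. Without Control replicate 1, the lower of both controls, it was 0.39 in Zzz3 auxin.

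*Id3* (ENSMUSG00000007872, chr4:136143497-136145755, plus strand) had 3.90 and 4.76 CPM in the 2 control libraries, 2.65, 3.96 and 5.89 CPM with Zzz3 auxin and 4.53, 4.78 and 4.04 CPM with Yeats2 auxin. Zzz3 auxin spanned the range of all 8 libraries, as it did for *Bmp4*, with the lowest value in replicate 1 and the highest in replicate 3 for both genes. The log2 FC was -0.08 (SE 0.29, interval -0.73 to 0.56, adjusted P 0.901) and 0.04 (SE 0.29, interval -0.60 to 0.68, adjusted P 0.967) for the Zzz3 and the Yeats2 depletion.

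For 7 of the 8 genes the highest value was in a library at an end of the GC trend. The share of all genes for which this holds is not given here, so it is not shown to be particular to the 8. Zzz3 auxin replicate 3 was highest for 4 of the 8 genes, *Bmp4*, *Id1*, *Id3* and *Smad6*, whose exons have 52.5% to 60.8% GC. Control replicate 1 was highest for 3, *Bmpr1a*, *Smad5* and *Smad1*, with 41.3% to 51.5% GC. *Id2*, with 45.1% GC, differed from these, with its lowest value in Control replicate 1 and its highest in Zzz3 auxin replicate 2. Control replicate 1 and Zzz3 auxin replicate 3 are the libraries that stood at the ends of the GC trend over all genes. Zzz3 auxin replicate 3 also had the fewest assigned reads, 14315120. After the correction for GC content and length Zzz3 auxin replicate 3 was still highest for *Bmp4* and *Id3*, and Control replicate 1 for *Smad1*.

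**Figure D3:**
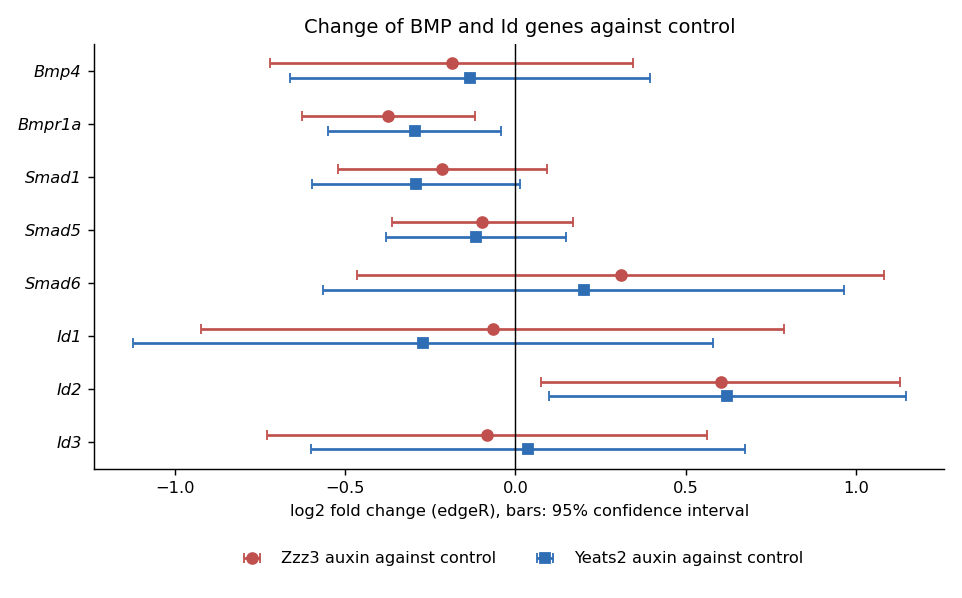
Log2 FC of the 8 genes in Zzz3 auxin (circles) and Yeats2 auxin (squares) against control, with 95% confidence intervals from edgeR. The intervals of *Bmpr1a* lie below 0 and those of *Id2* above 0 in both comparisons before adjustment for the number of genes tested, and the intervals of *Id1* and *Smad6* are the widest.

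The next question was whether the 2 depletions differ from each other. In the direct comparison of Yeats2 auxin with Zzz3 auxin 0 of the 8 genes were called by edgeR, as were 0% of all genes, and 0 of 8 had an unadjusted P under 0.05, against 6.25% of all genes. DESeq2 also gave 0 and 0. The log2 FCs ran from -0.21 for *Id1* (SE 0.35, interval -0.97 to 0.56) to 0.12 for *Id3* (SE 0.26, interval -0.45 to 0.69). For *Bmpr1a* the direct log2 FC was 0.08 (SE 0.10, interval -0.15 to 0.31) and for *Id2* 0.02 (SE 0.21, interval -0.43 to 0.47). The interval of *Bmpr1a* was the narrowest of the 8 and that of *Id1* the widest.

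The rest of the pathway was examined through 7 lists of 82 genes, of which 81 were found by symbol (*Hjv* was not) and 54 passed the filter. In Zzz3 auxin against control 0 of the 54 were called by edgeR, with 12 at an unadjusted P under 0.05, 7 higher and 5 lower. In Yeats2 auxin the counts were the same, 0 and 12, again 7 higher and 5 lower. In both this is 22.2%, beside the shares of all genes given above. Values of all 6 auxin libraries lay below both controls for 6 of the 54, *Acvr2a*, *Smad4*, *Tgif1*, *Xiap*, *Hey1* and *Tfap2a*, and above both for 7, *Bmp7*, *Eng*, *Smad9*, *Bambi*, *Smurf1*, *Ski* and *Ube2o*, beside 13.2% and 10.5% of all genes tested. DESeq2 called 5 genes in Zzz3 auxin, *Eng*, *Smurf1*, *Ski*, *Fkbp1a* and *Ube2o*, and *Eng* alone in Yeats2 auxin. Without Zzz3 auxin replicate 2, edgeR called 6 in Zzz3 auxin, those 5 and *Tcf3*. The shares of all genes called in these alternative fits are not given here, so these counts cannot be set against them. In the direct comparison 0 of 54 were called by edgeR or DESeq2. At an unadjusted P under 0.05 there were 5 with edgeR, which is 9.26%, beside 6.25% of all genes. DESeq2 had 7 at that cut, and its share of all genes is not given here.

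**Figure D4:**
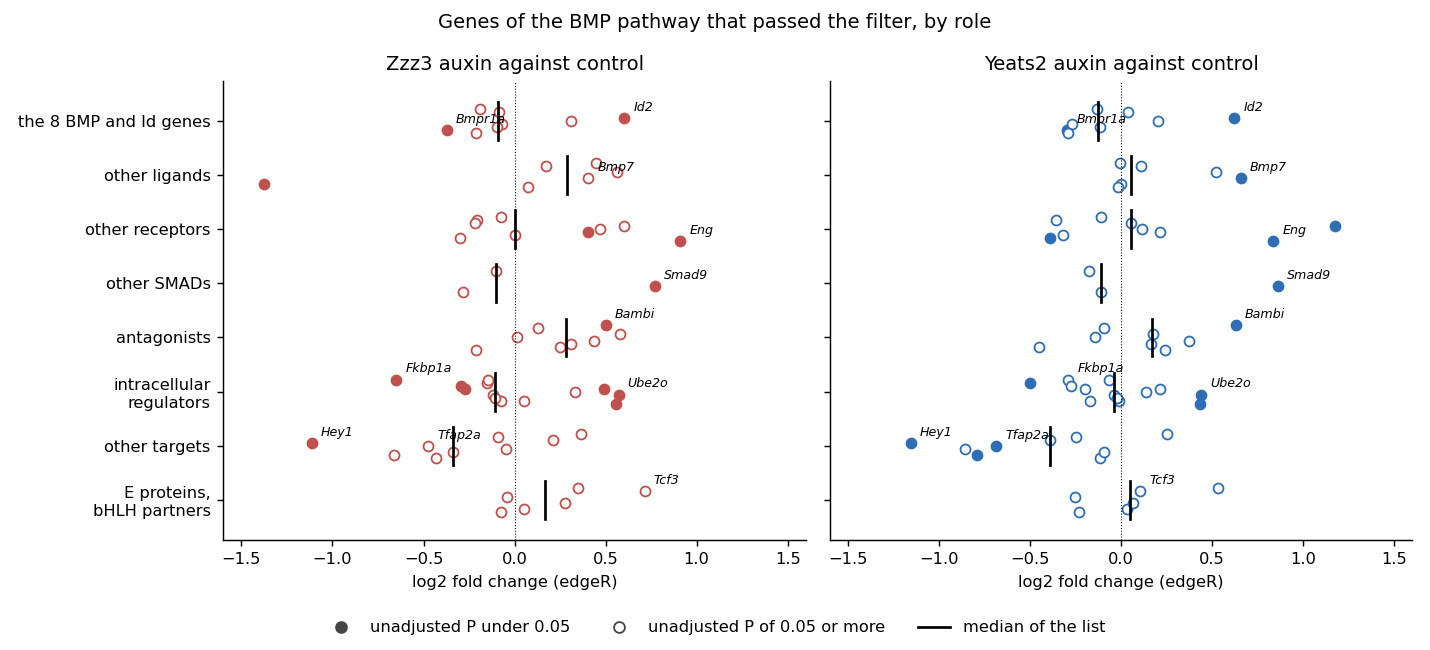
Log2 FC of each BMP pathway gene that passed the filter, by role, in Zzz3 auxin (left) and Yeats2 auxin (right) against control. Filled circles have an unadjusted P under 0.05, open circles do not, and vertical bars mark the median of each list. None of the genes was called by edgeR after adjustment, and *Eng* came nearest, with log2 FCs of 0.91 and 0.84.

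In the list of ligands, which also holds *Bmp1*, 6 of 15 genes passed the filter. The median log2 FC of these 6, *Bmp1* included, was 0.29 with Zzz3 auxin and 0.05 with Yeats2 auxin. *Bmp7* had 3.85 and 3.22 CPM in the 2 control libraries, 4.45, 4.54 and 5.09 CPM with Zzz3 auxin and 6.11, 5.25 and 5.38 CPM with Yeats2 auxin. All 6 auxin libraries lay above the controls, with log2 FCs of 0.41 (SE 0.20, edgeR adjusted P 0.274) and 0.66 (SE 0.20, adjusted P 0.176). *Bmp2*, picked after its values were seen, had only 2 to 21 reads per library. Its log2 FC was -1.38 in Zzz3 auxin (SE 0.60, edgeR adjusted P 0.211), with all 3 libraries below both controls. In Yeats2 auxin it was 0.0005 (SE 0.47), and the groups overlapped. *Bmp1*, whose product is a protease that cuts the BMP antagonist chordin and procollagen and is no BMP ligand despite its name, had log2 FCs of 0.45 and -0.0040 (SE 0.34 in both) and overlapped the controls in both.

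Among the receptors and co-receptors, 9 of 10 genes found passed, with medians of 0.00 and 0.05. *Eng* encodes endoglin, a co-receptor that binds BMP9 and BMP10 and is best known from blood vessels. It had 15.5 and 15.0 CPM in the 2 control libraries, 31.2, 25.8 and 28.9 CPM with Zzz3 auxin and 30.02, 19.9 and 31.7 CPM with Yeats2 auxin, so all 6 auxin libraries lay above both controls. The log2 FC was 0.91 in Zzz3 auxin (SE 0.20, interval 0.47 to 1.35, edgeR adjusted P 0.0579, DESeq2 adjusted P 0.00153) and 0.84 in Yeats2 auxin (SE 0.20, interval 0.40 to 1.27, edgeR adjusted P 0.105, DESeq2 adjusted P 0.00588). It was 0.58 and 0.61 with the GC and length correction (adjusted P 0.213 and 0.26), and in the contrast of both auxin groups with control 0.87, with an adjusted P of 0.0457. *Eng* overlaps *Fpgs* on the opposite strand and 3 small genes on its own, so part of its reads may belong to them. *Rgma*, a BMP co-receptor of neural tissue, had log2 FCs of 0.47 and 0.12 (SE 0.30 in both), within the spread of its groups.

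Of the 3 other SMAD genes, *Smad9* encodes the third receptor-regulated SMAD of the pathway and was the scarcest of the 6 SMAD mRNAs examined (*Smad1*, *Smad4*, *Smad5*, *Smad6*, *Smad7* and *Smad9*), with a median of 0.501 CPM per kb. It had 1.58 and 1.81 CPM in the 2 control libraries, 3.03, 3.41 and 2.14 CPM with Zzz3 auxin and 2.55, 2.82 and 3.92 CPM with Yeats2 auxin. All 6 auxin libraries lay above the controls, and with 32 to 99 reads per library the log2 FCs were 0.77 (SE 0.29, edgeR adjusted P 0.166) and 0.86 (SE 0.29, adjusted P 0.213). *Smad7* had 98.5 and 99.3 CPM in the 2 control libraries, 61.8, 92.5 and 90.1 CPM with Zzz3 auxin and 99.8, 76.7 and 98.2 CPM with Yeats2 auxin. Its log2 FCs were -0.28 (SE 0.18, adjusted P 0.381) and -0.11 (SE 0.18, adjusted P 0.803). *Smad4*, the shared partner of the receptor-regulated SMADs, had 76.0 and 76.1 CPM in the 2 control libraries, 74.4, 70.1 and 68.1 CPM with Zzz3 auxin and 71.7, 54.9 and 75.1 CPM with Yeats2 auxin. Its 6 auxin values lay below both controls, by log2 FCs of -0.10 and -0.18, with an unadjusted P of 0.05 or more in both.

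Of the 19 antagonists and modulators, 8 passed the filter, with medians of 0.28 and 0.17. The secreted antagonists *Nog*, *Grem1* and *Cer1* did not pass. *Bambi* encodes a receptor-like membrane protein without kinase activity that blocks signalling. It had 8.83 and 9.30 CPM in the 2 control libraries, 10.2, 14.3 and 14.1 CPM with Zzz3 auxin and 14.3, 14.6 and 13.3 CPM with Yeats2 auxin, all 6 above both controls, with log2 FCs of 0.50 (SE 0.18, edgeR adjusted P 0.154) and 0.63 (SE 0.18, adjusted P 0.161). *Crim1*, a membrane protein that tethers BMPs, had log2 FCs of 0.44 and 0.37 (SE 0.23 in both).

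All 13 intracellular regulators passed the filter, with medians of -0.11 and -0.04. *Fkbp1a* encodes FKBP12, which keeps type I receptors silent in the absence of ligand. It had 128 and 85.3 CPM in the 2 control libraries, 65.0, 81.9 and 57.0 CPM with Zzz3 auxin and 90.8, 79.5 and 91.9 CPM with Yeats2 auxin. Its log2 FC of -0.65 in Zzz3 auxin (SE 0.19, edgeR adjusted P 0.0942) was -0.21 without the 2 libraries at the ends of the GC trend, and in Yeats2 auxin it was -0.29 (SE 0.19, adjusted P 0.497). *Ube2o*, a ubiquitin-conjugating enzyme that acts on SMAD6, had 31.1 and 38.2 CPM in the 2 control libraries, 52.3, 46.1 and 56.3 CPM with Zzz3 auxin and 46.9, 44.5 and 49.7 CPM with Yeats2 auxin, with log2 FCs of 0.57 (SE 0.14, adjusted P 0.0757) and 0.44 (SE 0.14, adjusted P 0.191). With the GC and length correction both were 0.21.

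Of 14 other known target genes 9 passed, with medians of -0.34 and -0.39, the lowest of the 7 lists. Several of the 9 had few reads. The list leaves out the targets *Id1*, *Id2*, *Id3*, *Smad6* and *Smad7*, whose log2 FCs, given above, had both signs. *Tfap2a*, a transcription factor of surface ectoderm and neural crest, had 5.43 and 3.63 CPM in the 2 control libraries, 3.49, 2.82 and 3.48 CPM with Zzz3 auxin and 2.75, 2.64 and 3.05 CPM with Yeats2 auxin, with log2 FCs of -0.47 (SE 0.24, edgeR adjusted P 0.273) and -0.68 (SE 0.24, adjusted P 0.222). *Dusp9*, a phosphatase of the ERK pathway that BMP induces in ESCs, had log2 FCs of 0.36 and 0.25 (SE 0.25 in both), and in Zzz3 auxin its sign turned with the GC and length correction. *Id4* had 15.3 and 16.3 CPM in the 2 control libraries, 15.5, 15.9 and 13.0 CPM with Zzz3 auxin and 14.7, 12.6 and 12.7 CPM with Yeats2 auxin. *Hey1*, a bHLH repressor that both BMP and Notch induce, was under the 2 CPM set for naming a gene and was picked after its values were seen. It had 1.58 and 1.54 CPM in the 2 control libraries, 0.729, 0.696 and 0.736 CPM with Zzz3 auxin and 0.696, 0.760 and 0.633 CPM with Yeats2 auxin, from 11 to 34 reads per library. All 6 auxin libraries were below both controls, with log2 FCs of -1.11 (SE 0.30, interval -1.77 to -0.46, edgeR adjusted P 0.0855) and -1.16 (SE 0.29, interval -1.80 to -0.51, adjusted P 0.126).

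Of 7 E proteins and other bHLH genes, the partners that ID proteins capture or compete for, 6 passed the filter, with medians of 0.17 and 0.05 and 0 at an unadjusted P under 0.05 in either comparison. *Tcf3*, which encodes the E proteins E12 and E47, had 22.1 and 34.7 CPM in the 2 control libraries, 44.8, 26.7 and 69.0 CPM with Zzz3 auxin and 29.0, 28.4 and 34.1 CPM with Yeats2 auxin. Zzz3 auxin spread from below 1 control to well above the other, and the log2 FCs were 0.71 (SE 0.33, edgeR adjusted P 0.244) and 0.10 (SE 0.33, adjusted P 0.91). *Ascl2*, a bHLH factor of trophoblast, had log2 FCs of 0.35 and 0.53 (SE 0.35 in both).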

How the data were processed

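Total RNA of 8 ESC cultures was sequenced from ribosome-depleted TruSeq Stranded libraries, although the labels name poly(A) RNA as the molecule. The deposited values are raw counts of reads per gene, 1 file per library. According to the methods and processing notes, the authors used cutadapt for trimming, discarded ribosomal RNA reads, aligned the remainder to mm10 (GRCm38) with STAR 2.5.3a and counted uniquely aligned reads with HTSeq 0.6.1p1 in union mode. The strand option is not stated.

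From the counts, 55401 genes were kept and 5 tallies of unassigned reads left out. GENCODE annotation of GRCm38 named 55141 of them. All 8 libraries were fitted in R 4.3.3 with edgeR 4.0.16 (filterByExpr, TMM, robust quasi-likelihood test, a mean per group). Two-sided P values were adjusted per comparison (Benjamini-Hochberg, 3 comparisons), and an adjusted P under 0.05 counted as a call. The SE is the absolute log2 FC over the square root of F. DESeq2 1.42.0, the tool of the study, was an alternative. The others were median-of-ratios size factors, no filter, only the groups compared, the replicate number as a block, a correction for GC content and exon length (lowess span 0.3), and each library left out. A fit without the 2 libraries at the ends of the GC trend and the contrast of both auxin groups with control were added after seeing the data. The fit was tested on simulated counts with absolute log2 FCs of 1.5 and 2. It recovered 91% to 99% of these changes, and 6.34% to 8.65% of its calls were false. These changes are larger than those of the 8 genes, so the simulation does not show the power for changes of their size. Likeness to *Id1* and *Bmp4* used log2 CPM with a prior count of 2.

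The 8 genes, the pathway lists and the markers were chosen with earlier results of these data known. Named were the 8 genes, any list gene called, per list the 2 with the largest log2 FC against control among those averaging 2 CPM or more, and 3 genes most like *Id1* and *Bmp4*. *Bmp2*, *Gdf3*, *Acvr1*, *Bmpr2*, *Smad4*, *Id4* and *Hey1* fall outside this rule. So do the list genes called only by an alternative, named as not passing the filter or named for groups that did not overlap. All of these were chosen after their values were seen. Counting errors cover sampling of reads only. Nascent RNA was not analysed here.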

Additional observations from a re-analysis of the deposited data

How the results depend on the processing

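Under all 16 alternatives, 0 of the 8 BMP and Id genes were called in the 3 comparisons (edgeR or DESeq2), with 0 to 2 at an unadjusted P under 0.05. Their log2 FCs kept their sign in 350 of 384 values. Of the 54 other pathway genes, 0 called in both comparisons with control became 5 (Zzz3 auxin) and 1 (Yeats2 auxin) with DESeq2, 6 and 1 without a filter, 2 in Yeats2 auxin with only the 2 groups compared, and 0 to 6 in Zzz3 auxin with 1 library left out. The direct comparison stayed at 0. The shares of all genes called, or at an unadjusted P under 0.05, are not given for each alternative. These counts therefore do not show whether the 8 genes or the rest of the pathway stand out.

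In Zzz3 auxin against control the GC and length correction gave *Smad5* 0.018, *Smad6* -0.11, *Rgma* -0.0013, *Dusp9* -0.018 and *Ascl2* -0.029, whose reported log2 FCs were -0.10, 0.31, 0.47, 0.36 and 0.35, and in Yeats2 auxin *Id3* -0.11, *Smad6* -0.019, *Rgma* -0.14 and *Tcf3* -0.13. Between the depletions it gave *Id2* -0.012 and *Smad6* 0.091. Together with the replicate block it gave, in Zzz3 auxin, *Smad6* -0.15, *Bmp1* -0.086, *Rgma* -0.050, *Dusp9* -0.14 and *Ascl2* -0.19, in Yeats2 auxin *Id3* -0.19, *Smad6* -0.045, *Rgma* -0.22, *Dusp9* -0.071 and *Tcf3* -0.29, and between the depletions *Smad6* 0.11. Without the 2 libraries at the ends of the GC trend *Smad6* was -0.43, -0.18 and, between the depletions, 0.26, *Id2* between the depletions -0.14, *Dusp9* in Zzz3 auxin -0.12, and in Yeats2 auxin *Id3* -0.084, *Rgma* -0.0089, *Fkbp1a* 0.048 and *Tcf3* -0.17. *Bmp1* in Yeats2 auxin was 0.0001 with DESeq2, 0.0014 with median-of-ratios size factors, 0.018 without a filter and 0.011 with only the 2 groups compared. The cause was not tested.

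The replicate block alone gave *Id3* -0.050, *Rgma* -0.026 and *Tcf3* -0.10 in Yeats2 auxin and called 0 of the 8 and 0 of the 54. Deviations from group means of equally numbered libraries had Pearson r across genes from -0.338 to 0.305. For unequally numbered libraries r ran from -0.371 to 0.371. The deviations of the controls from their mean mirror each other, so each r with a control recurs with the opposite sign for the other control. The values with a control therefore cannot decide whether the replicate numbers pair the cultures. Between Zzz3 auxin and Yeats2 auxin, r was 0.021, 0.046 and -0.072 for equally numbered replicates 1, 2 and 3. For unequal numbers of these groups it ran from -0.101 to 0.058, so equal numbers did not deviate together more than unequal ones there.

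With 1 library left out, log2 FCs that changed sign ranged in Zzz3 auxin from -0.22 to 0.22 for *Id1*, -0.38 to 0.18 for *Id3* and -0.083 to 0.87 for *Smad6*. In Yeats2 auxin they ranged from -0.28 to 0.030 for *Bmp4*, -0.55 to 0.039 for *Id1*, -0.10 to 0.19 for *Id3*, -0.19 to 0.76 for *Smad6*, -0.13 to 0.15 for *Bmp1*, -0.13 to 0.33 for *Rgma*, -0.17 to 0.0021 for *Smad7*, -0.55 to 0.034 for *Fkbp1a* and -0.19 to 0.47 for *Tcf3*. Between the depletions they ranged from -0.12 to 0.31 for *Bmp4*, -0.49 to 0.10 for *Id1*, -0.14 to 0.13 for *Id2*, -0.13 to 0.43 for *Id3*, -0.087 to 0.058 for *Smad5* and -0.31 to 0.25 for *Smad6*. The 2 controls limit the precision throughout, and for *Id1*, *Smad6* and *Hey1* so do their low counts.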
